A study of Drosophila melanogaster with 2 samples.

Results

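Zona pellucida (ZP) domain proteins are secreted or membrane-anchored proteins whose ZP domain lets them assemble into filaments in the matrix that covers the apical face of epithelial cells. In the fly epidermis this matrix shapes hairs and denticles, links cells to the overlying cuticle and holds the wing blade under tension. H3K27ac, acetylated lysine of the histone H3 tail, marks promoters and enhancers in use. The peaks of this mark were described here at 10 ZP-domain genes, dpy, pio, m, dy, dyl, mey, tyn, neo, nyo and zye, of 13922 protein-coding genes on the chromosome arms. For each gene, every peak overlapping the annotated dm6 span extended by 5 kb on both sides was taken. All 10 symbols were found in the gene table, with dpy listed under that name.

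The material was male pupal wings of the transgenic D. melanogaster line D2 at 67% of pupal development, taken in 2 biological replicates that each pooled 35 to 45 wings. Nuclei from the lightly crosslinked wings went through CUT&RUN, in which an antibody-tethered nuclease cuts out the marked chromatin. Both replicates carry the same line, stage, sex and antibody and form 1 group, so no contrast of conditions exists and no test was run. The series description places this stage at the time when the activity of a spot element is repressed.

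The list of replicate 1 held 14461 peaks and that of replicate 2 held 26420. The fold enrichment printed for a peak is the authors' own ratio of the pileup at its summit over the background that the caller set there. The pileup and the background recovered from those values are given in fragments. The genome-wide background was 13.8 fragments in replicate 1 and 27.1 in replicate 2. Total read numbers were not used. A peak is called shared when it overlaps a peak of the other replicate by at least 1 bp. Of wing genes fixed as markers, nub and ap had peaks reaching 500 bp or less from an end of the gene in both lists (here called a gene-end peak) and vg, sd and rn did not, although all 5 had a shared peak within 5 kb. Gene-end peaks in both lists were found at 2 of 5 muscle, 0 of 4 hemocyte, 1 of 4 neuron, 2 of 4 trachea, 2 of 3 tendon and 1 of 4 fat body markers, and the part of such cells in the results below was not tested. Gene-end peaks of the 2 lists need not overlap or lie at the same end. The neuron marker counted, elav, had 0 shared peaks within 5 kb. Shared peaks within 5 kb were found at 3 of 5 muscle, 2 of 4 hemocyte, 3 of 4 neuron, 4 of 4 trachea, 3 of 3 tendon and 1 of 4 fat body markers. Over all protein-coding genes, 39.3% had gene-end peaks in both lists and 74.6% had a shared peak within 5 kb. The 2 lists differed at gene ends. In replicate 2, gene-end peaks were listed at 4 of 5 wing, 4 of 5 muscle, 4 of 4 hemocyte and 3 of 4 trachea markers. In replicate 1 these numbers were 2, 2, 0 and 2. For neuron, tendon and fat body markers they were 1, 2 and 1 in either list.

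All 10 ZP genes had at least 1 shared peak in the extended span, against 74.6% of all protein-coding genes and 83.2% of those of at least 5 kb, a length that every ZP gene exceeds and that was chosen after seeing the data. Counting peaks that lie near 2 of the genes once, replicate 1 listed 68 peaks at the ZP genes and replicate 2 listed 119. Of these, 49 in replicate 1 (72.1%) and 53 in replicate 2 (44.5%) were shared, against 79.2% and 44.7% over the whole lists. The share in replicate 2 rests in large part on dpy, which held 47 of the 119 peaks, with 12 shared. Gene-end peaks in both lists were found at 5 of the 10 genes (dy, mey, neo, dpy and zye) against 39.3% of all genes and 41.5% of genes of at least 5 kb. In a wing homogenate, fewer cells with the mark and less of the mark per cell cannot be told apart.

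**Figure D1:**
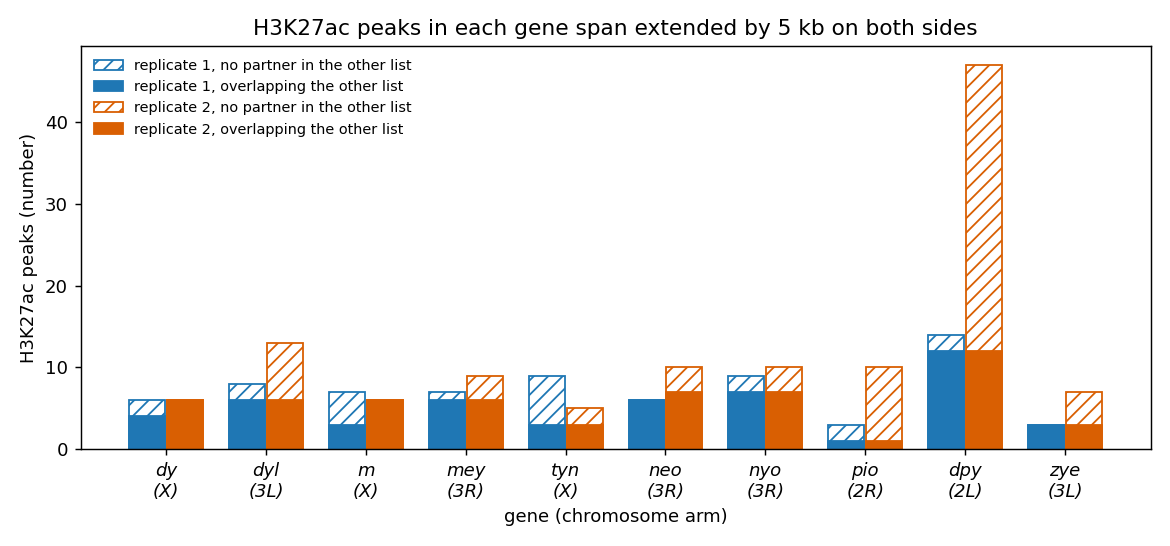
Number of H3K27ac peaks (vertical axis) in the span of each gene extended by 5 kb, with replicate 1 in blue and replicate 2 in orange. The filled part of a bar is the number of peaks overlapping the other list and the hatched part has no partner. The bar of dpy in replicate 2 reaches 47 peaks, of which 12 are shared, and pio has 1 shared peak in each list.

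By fold, the peaks of the ZP genes lay slightly below the middle of their lists. The median fold enrichment of their peaks was 2.29 in replicate 1 and 1.98 in replicate 2, against 2.43 and 2.07 over the whole lists. In the top 5% by fold lay 3 of 68 peaks (4.41%) in replicate 1 and 2 of 119 (1.68%) in replicate 2. By pileup, a ranking chosen after seeing the data, 9 of 68 (13.2%) and 8 of 119 (6.72%) lay in the top 5%. All 9 in replicate 1 were counted at dyl and neo. Those of replicate 2 were at the same 2 genes but for 1 at mey. Of the replicate 1 peaks at neo, 4 lay inside the neighbouring genes Vps16B and Atg16. The median percentile of the peaks was 36.3 in replicate 1 and 38.8 in replicate 2 by fold, and 64.9 and 58.1 by pileup. The highest shared peak of each gene, by the mean of both replicates, had a median of 2.73 over the 10 genes, against 2.74 over all genes with a shared peak and 2.82 over those of at least 5 kb. At shared peaks, the summits of the replicates lay a median of 49 bp apart, with 25 of 49 within 50 bp, against a median of 62 bp and 45.1% within 50 bp over all 11423 shared peaks on the arms.

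The products of dpy and pio work together at the apical face of the wing. The gene dpy (dumpy) encodes a giant filament protein that ties the wing epidermis to the cuticle, and pio (piopio) encodes a smaller ZP protein needed for the same attachment. The dpy gene spans 2L:4477462-4614300, 136.8 kb. By the mean fold of both replicates, it held the highest shared peak of the 10 genes, at 2L:4533376-4534237 in replicate 1. Its fold enrichment was 4.24 in replicate 1 and 3.25 in replicate 2, at percentiles 98.4 and 97.3 of the lists. The pileups were 71 fragments (exact Poisson 95% interval 55.5 to 89.6) and 92 fragments, and both summits fell on the same base, 4533728, inside the gene and 56.3 kb from its lower-coordinate end. By fold, dpy was the 1 gene of the 10 with a shared pair above percentile 95 in both lists, against 5.05% of all genes and 8.36% of those of at least 5 kb.

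The other shared peaks of dpy lay in groups. At the lower-coordinate end, 3 shared peaks were found, of which the one nearest the gene had folds of 2.84 and 2.72. That peak also reached the end of the neighbouring gene ine, and the other 2 lay inside ine. A further 3 shared peaks stood 53 to 57 kb into the gene, among them the highest one, and 4 stood at 90 to 102 kb. The last shared peak, inside the gene at 2L:4599875-4600365, had folds of 3.17 and 3.38 and was the highest of the gene in replicate 2. Between these groups the replicates parted. From the gene end to 53 kb, replicate 1 listed 1 peak and replicate 2 listed 17, with folds between 1.63 and 2.13 and no overlap between the lists. From 57 to 90 kb, replicate 1 listed 0 peaks and replicate 2 listed 10, with folds of at most 2.20. The peaks of replicate 1 covered 2.49% of the dpy span and those of replicate 2 covered 10.1%, with 1.98% covered in both.

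The pio gene, at 2R:24581245-24597862, had the fewest shared peaks of the 10 genes within 5 kb. Its 1 shared peak lay outside the gene, with summits 723 bp and 742 bp below the lower-coordinate end, and had folds of 2.00 and 2.22. Replicate 2 listed a further peak 222 bp below that end, with a fold of 2.18 and a pileup of 110 fragments, which replicate 1 did not list. Inside the span, replicate 1 listed 2 peaks and replicate 2 listed 5, and none overlapped, so that 0 bp were covered in both lists. The nearest approach of the lists inside pio was 116 bp, between a replicate 1 peak of 1.83 and a replicate 2 peak of 1.61. Without the extension of the span, pio was the gene that lost its shared peak, leaving 9 of 10 genes with one, against 37.5% of all genes and 64.6% of genes of at least 5 kb. With an extension of 10 kb, its highest shared fold was 3.13 as the mean of both replicates, after 2.11 with 5 kb.

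**Figure D2:**
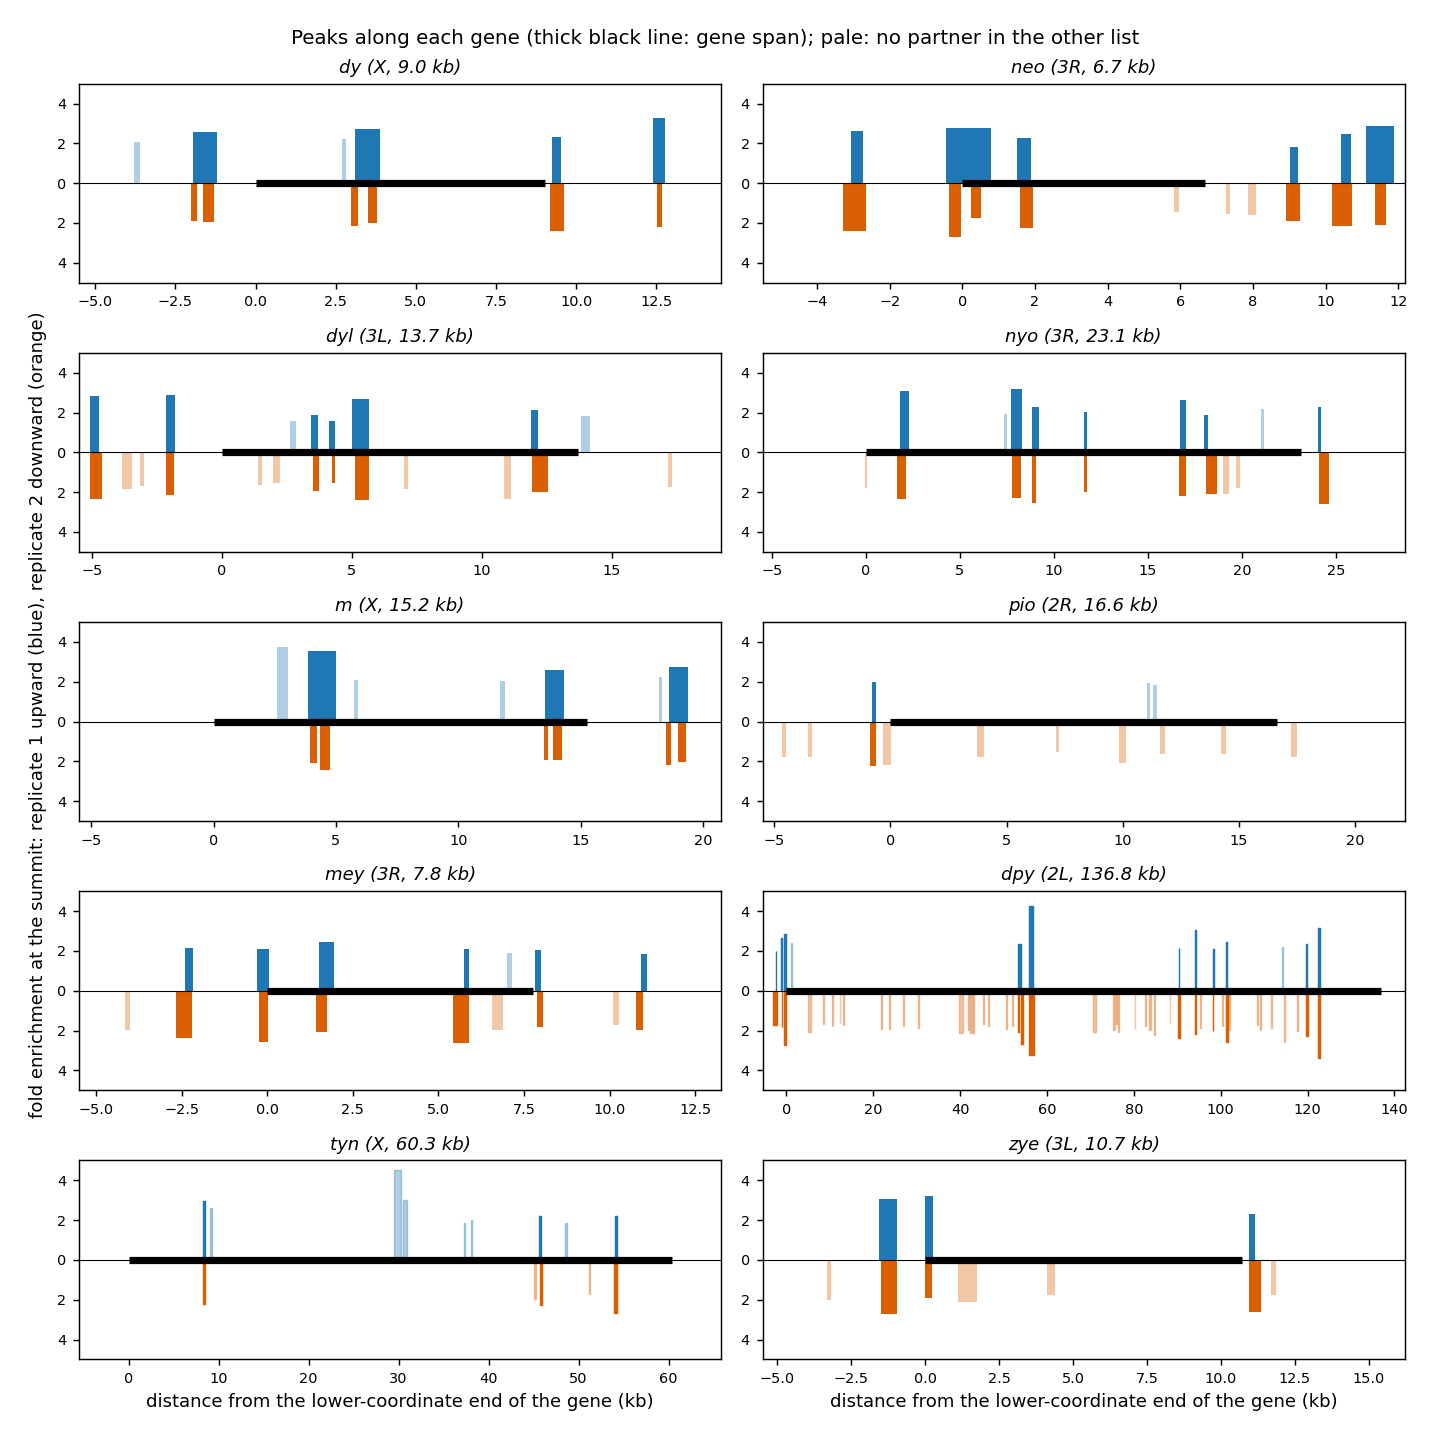
Peaks along each of the 10 genes, with the distance from the lower-coordinate end in kb on the horizontal axis and the authors' fold enrichment on the vertical axis, upward for replicate 1 and downward for replicate 2. The thick line is the gene span and pale bars are peaks with no partner in the other list. The lone peak of 4.52 inside tyn and the row of unpaired replicate 2 peaks inside dpy are visible, as is the absence of paired peaks inside pio.

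The genes m (miniature) and dy (dusky), named for the small dark wings of their mutants, are needed for the flattening of wing cells. They lie next to each other on the X, with m at X:11754273-11769508 and dy at X:11769769-11778784, 260 bp apart. Their extended spans overlap, so 4 peaks of each list were counted at both. The highest shared peak of m lay inside the gene, at X:11758109-11759275 in replicate 1, and was 1167 bp wide there. Its fold was 3.56 in replicate 1 and 2.42 in replicate 2, and each replicate had a pileup of 67 fragments with summits 3 bp apart. The caller's background at these equal pileups was 18.1 fragments in replicate 1 and 27.1 in replicate 2.

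A higher peak inside m, with a fold of 3.73 in replicate 1 at percentile 96.1, had no partner, and the nearest replicate 2 peak was 904 bp away. Close to the higher-coordinate end of m, a replicate 1 peak of 2.57 was matched by 2 replicate 2 peaks of 1.92 and 1.96. Neither end of m had a gene-end peak in either list. The dy gene held a shared peak of 2.73 inside its span, matched by replicate 2 peaks of 2.17 and 2.03. A second shared peak, just beyond its higher-coordinate end, had folds of 2.31 and 2.42. The highest shared peak of dy lay 3.52 kb beyond that end, with no other protein-coding gene annotated within 5 kb of dy on that side, and had folds of 3.25 and 2.20.

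The related gene dyl (dusky-like), which is needed for chitin deposition in bristles, spans 3L:4294004-4307718. Its peaks were low by fold and high by pileup. The highest peak inside the gene, at 3L:4299023-4299654 in replicate 1 and 5.55 kb from the lower-coordinate end, had folds of 2.68 and 2.40, at percentiles 68.7 and 77.6. Its pileup was 154 fragments (exact Poisson 95% interval 131 to 180) in replicate 1 and 144 (121 to 170) in replicate 2, at percentiles 99.95 and 99.3 of the lists by pileup. The background there was 56.9 fragments in replicate 1, 4.11 times the genome-wide value, and 59.5 in replicate 2, 2.19 times that value. How the caller set the background is not given in the sources used here. Other shared peaks inside dyl had folds of 1.85 and 1.95, 1.58 and 1.56, and 2.11 and 2.00. The first and last of these had 96 and 110 fragments in replicate 1. The 2 shared peaks with the highest replicate 1 folds in the extended span lay inside the neighbouring genes Hexo1 (2.84 and 2.36) and CG15012 (2.86 and 2.15). No gene end of dyl had a peak in both lists. Replicate 1 listed one of 1.82 just beyond the higher-coordinate end, and replicate 2 had none there.

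**Figure D3:**
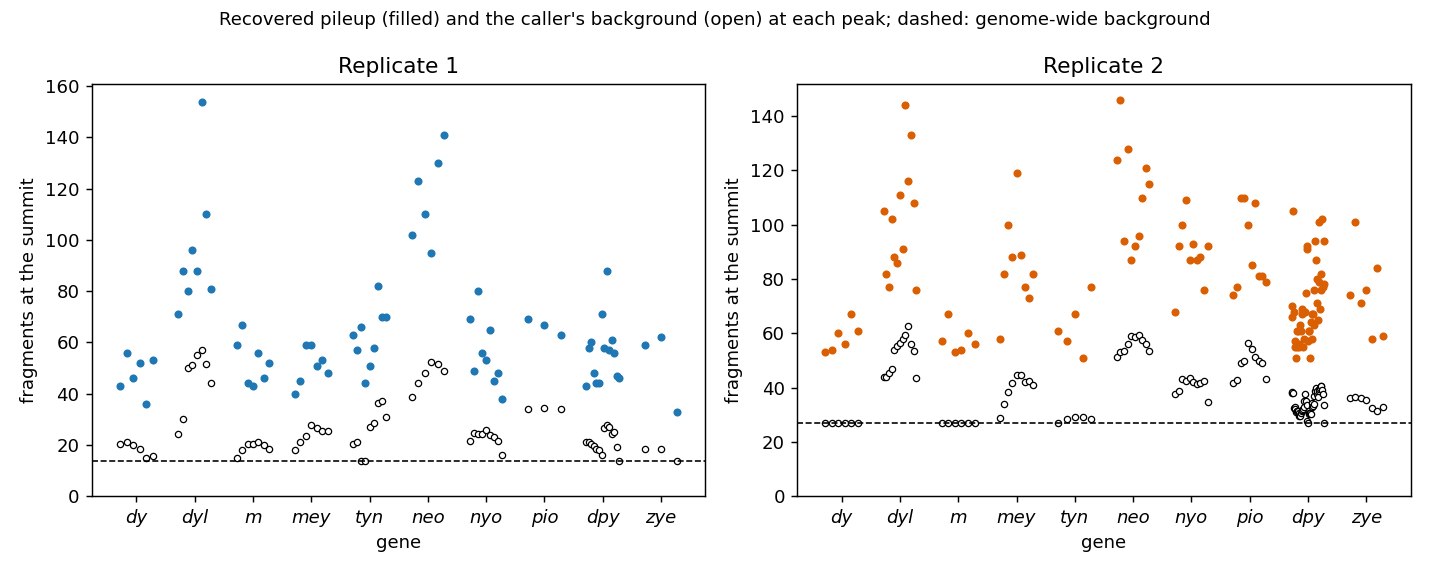
Recovered fragments at each peak summit (filled) and the background set by the caller at the same peak (open), by gene, for each replicate on a vertical axis of fragments. The dashed line is the genome-wide background of 13.8 or 27.1 fragments. The peaks of dyl and neo stand highest in both panels, over a background well above the line, and in replicate 2 the background at m and dy lies on the line.

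The remaining 5 genes, mey (morpheyus), tyn (trynity), neo (neyo), nyo (nyobe) and zye (zye), are known from the embryonic epidermis, where their proteins occupy distinct zones of the apical membrane and matrix of the denticles. The neo gene, at 3R:29819131-29825800, is the shortest of the 10 and had 3.60 shared peaks per 10 kb of extended span. Its highest shared peak covered the lower-coordinate end in replicate 1 (3R:29818670-29819910) and had folds of 2.75 and 2.72. The summits fell on the same base in both replicates, 29818852, outside the gene by 279 bp, with 123 and 146 fragments. A second shared peak lay inside neo, with folds of 2.26 in both replicates and 110 and 128 fragments. Of the 6 shared peaks of replicate 1 counted at neo, 4 lay inside other genes, 1 in Vps16B and 3 in Atg16, and without them the density was 1.20 per 10 kb.

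When peaks were ranked by pileup, dyl and neo were the 2 genes with a shared pair above percentile 95 in both lists, and dpy was no longer among them. The same rule held for 4.42% of all genes and 7.87% of those of at least 5 kb. The median background over the peaks of a gene was 3.67 times the genome-wide value at dyl and 3.50 times at neo in replicate 1, against 1.42 times over the whole list. In replicate 2 these ratios were 1.98 and 2.06, against 1.26. The lowest ratios in replicate 2 were at m and dy, 1.00 for each, on the X, where 78.5% of the peaks of replicate 2 had a background within 1% of the genome-wide value.

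The mey and nyo genes are neighbours on 3R, with mey at 31499235 to 31506992 and nyo at 31543032 to 31566165. No protein-coding gene is annotated in the 36 kb between them. Both ends of mey had a shared peak. The peak across its lower-coordinate end had folds of 2.08 and 2.56, and that just past its higher-coordinate end 2.04 and 1.80. The highest shared peak of mey, inside the gene at 3R:31504993-31505135 in replicate 1, had folds of 2.10 and 2.62, at percentiles 18.6 and 86.8 of the lists. The replicates thus ranked it differently, with summits 11 bp apart and pileups of 59 and 119 fragments. The mey gene had 3.38 shared peaks per 10 kb.

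The nyo gene held 6 shared summits inside its span, the second highest number after the 9 of dpy. The leading pair lay 7.95 kb from the lower-coordinate end, at 3R:31550740-31551301 in replicate 1, with folds of 3.19 and 2.29 and summits 2 bp apart. A peak 1.93 kb from that end had folds of 3.10 and 2.34, also with summits 2 bp apart. Another, 8.97 kb into the gene, had 2.26 and 2.53. At the lower-coordinate end itself, replicate 2 listed a peak of 1.78 and replicate 1 listed none. The gap between mey and nyo held 9 peaks in replicate 1 and 17 in replicate 2, of which 7 in replicate 1 were shared. The highest of these lay 8.11 kb past mey, with folds of 2.51 and 2.58, and another 20.2 kb past mey had 2.19 and 2.66.

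The tyn gene, at X:140318-200663, held the highest peak of all 10 genes by fold, and that peak was listed in replicate 1 alone. It lay 30.1 kb from the lower-coordinate end, at X:169864-170537, with a fold of 4.52 at percentile 99.1 and 66 fragments (exact Poisson 95% interval 51.0 to 84.0) over the genome-wide background of 13.8. By pileup, this peak stood at percentile 76.0 of the list. A neighbouring peak of 3.04 was likewise listed in replicate 1 alone. The nearest replicate 2 peaks were 14.9 and 14.2 kb away. Elsewhere in tyn, replicate 2 listed peaks with as few as 51 fragments and a fold of 1.73. The genome-wide background was 13.8 in replicate 1 and 27.1 in replicate 2, so fragments of the 2 lists are not on 1 scale. Why the peaks of 4.52 and 3.04 had no partner was not tested. Of the 9 peaks of tyn in replicate 1, 3 were shared. They had folds of 2.97 and 2.20 next to the end of CG17707, a gene nested in tyn, 2.23 and 2.26 at 45.7 kb, and 2.23 and 2.65 at 54.2 kb. The ends of tyn had no gene-end peak in either list.

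The zye gene, at 3L:20413604-20424309, had its 3 shared peaks at its ends. One covered the lower-coordinate end with folds of 3.23 and 1.94. A second, 1.17 kb outside that end in replicate 1, was the highest of zye by the mean of both replicates, with 3.07 and 2.73. The last, just past the higher-coordinate end, had 2.29 and 2.64 and lay inside the neighbouring gene CG5282. In the interior, replicate 2 listed peaks of 2.12 and 1.77 that replicate 1 did not list.

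**Figure D4:**
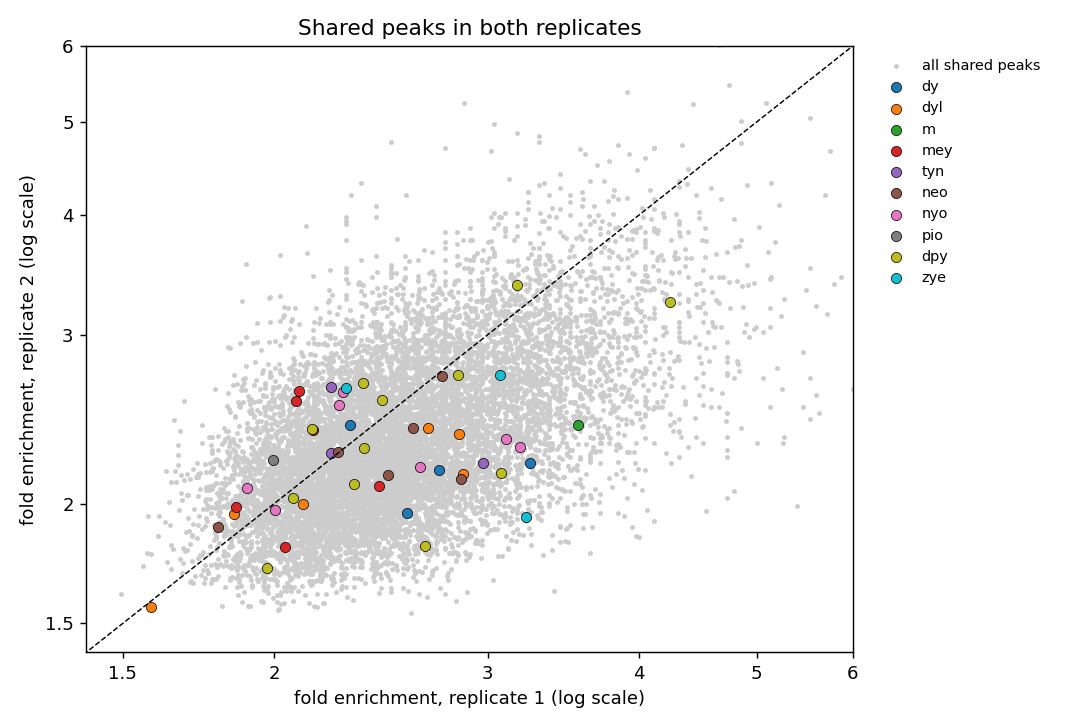
Fold enrichment in replicate 1 (horizontal, log scale) and replicate 2 (vertical, log scale) for shared peaks, with all shared peaks on the arms in grey and those of the 10 genes in colour. A replicate 1 peak is plotted once, against its highest partner, and peaks counted at both dy and m carry the colour of dy. The dashed line marks equal folds, and grey points beyond the axis limit of 6 are not shown. The highest coloured points are those of dpy at 4.24 and 3.25 and at 3.17 and 3.38.

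Fold enrichment was mostly higher in replicate 1. At 30 of the 49 shared peaks of the ZP genes (61.2%) the replicate 2 fold was the lower one, against 69.4% over all shared peaks, and the median ratio of replicate 2 to replicate 1 was 0.960 against 0.914. At the ZP genes, the share of peaks with a partner was lower on the X than on the autosomes in replicate 1 and higher in replicate 2. On the X, 8 of 18 peaks of replicate 1 at m, dy and tyn were shared (44.4%), against 46.1% of all X peaks. On the autosomes, 41 of 50 were shared (82.0%), against 82.6% on 2L, 2R, 3L and 3R. In replicate 2, 11 of 13 X peaks at these genes were shared (84.6%), against 43.4% of all X peaks. These 11 matched only the 8 shared peaks of replicate 1. Of the 11, 6 lay in pairs under 3 wider replicate 1 peaks, all counted at m. With a reciprocal overlap of 50%, m had 0 shared peaks. The autosomal genes had 42 of 106 shared (39.6%), against 44.7% on 2L, 2R, 3L and 3R. Of these 106 peaks, 47 were at dpy, with 12 shared (25.5%). The share was 70.0% at neo and nyo, 66.7% at mey, 46.2% at dyl, 42.9% at zye and 10.0% at pio. The 7 autosomal genes each had more peaks in replicate 2. Of the X genes, dy had 6 in each list, m had 7 in replicate 1 and 6 in replicate 2, and tyn had 9 and 5. Over the whole lists the number of peaks in replicate 2 was 1.08 times that of replicate 1 on the X and 1.91 times on 2L, 2R, 3L and 3R.

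Longer genes can hold more peaks, so shared peaks were also counted per length. The density was between 0.376 per 10 kb at pio and 3.60 at neo, with a median of 1.78. The median was 1.25 over all protein-coding genes, and 1.16 over those of at least 5 kb. Of the 10 genes, 7 lay above the latter value, namely neo, mey, dyl, nyo (2.11), dy (2.10), zye (1.45) and m (1.19). The values for dpy and tyn were 0.817 and 0.426. The medians and percentiles here cover genes of all arms. No separate median was taken for the X, which holds m, dy and tyn. Among genes of at least 5 kb, neo stood at percentile 99.1 and mey at 98.4, and pio at 23.0. Without peaks inside another gene, dyl had 1.69 per 10 kb, dy 1.58, neo 1.20, zye 0.966 and m 0.793, while mey kept 3.38 and nyo 2.11. The medians over all genes were not taken again without such peaks. The density of mey was above that of neo with no extension (3.87 and 3.00), with 2 kb (3.40 and 1.87) and with 10 kb (3.24 and 2.25). With 5 kb, stricter settings gave the reverse order. At a -log10 q of at least 5, mey had 1.13 and neo 3.60. At a reciprocal overlap of 50%, the values were 1.69 and 2.40. With the same number of lowest-p peaks kept in either list, mey had 0 and neo 3.00. With 10 kb, pio had 1.37, above m, dpy and tyn.

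**Figure D5:**
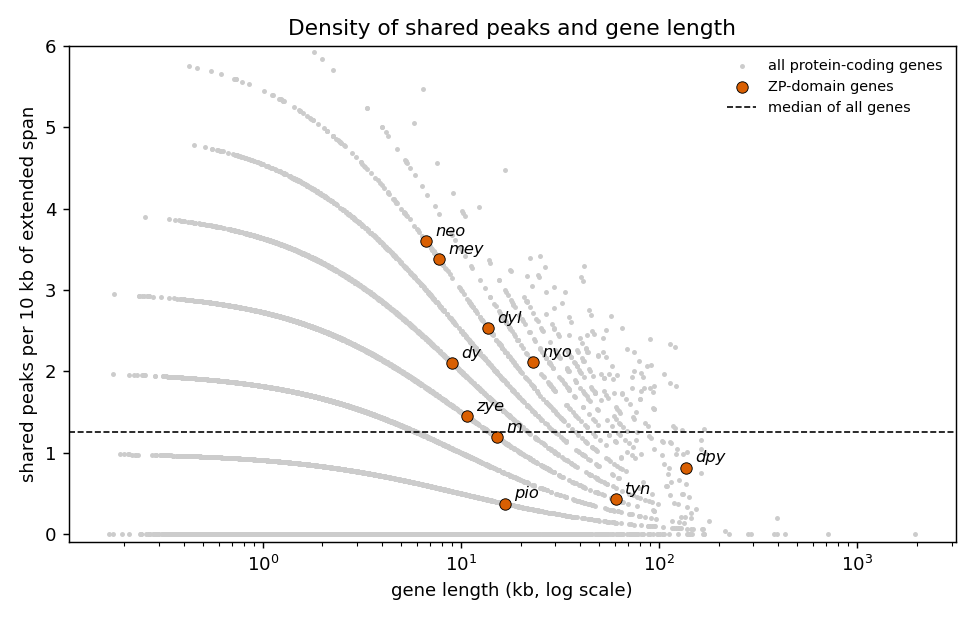
Shared peaks per 10 kb of extended span (vertical) against gene length in kb (horizontal, log scale) for all protein-coding genes in grey and the 10 ZP genes in orange. Curved rows of grey points are genes with the same number of shared peaks, and the dashed line is the median of all genes, 1.25. With this extension of 5 kb, the points of neo and mey lie highest and those of pio and tyn lowest among the 10.

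A further 8 ZP-domain genes of the fly, pot, cyr, qsm, nompA, CG10005, CG15020, CG17111 and CG12814, were counted for comparison. All 8 had a shared peak in the extended span, against 74.6% of all protein-coding genes. A gene-end peak in both lists was found at 2, nompA and CG15020, against 39.3% of all protein-coding genes. The peak at CG15020 had folds of 3.80 and 3.66. The gene pot (papillote), whose product works with those of pio and dpy in the wing, had 1 shared peak, with folds of 2.61 and 2.48. The median density of the 8 genes was 1.53 per 10 kb.

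A list of 6 genes of hair regulation and the apical matrix held ovo, SoxN, grh, Np, Sb and tnc. Of these, 5 had a shared peak and 2, SoxN and Np, had a gene-end peak in both lists, against 74.6% and 39.3% of all protein-coding genes. The exception was ovo, whose shavenbaby product directs embryonic denticle genes, among them several of the ZP genes. It had no peak in either list in its extended span, which lies on the X. The gene-end peak of SoxN, a transcription factor that acts with shavenbaby, had folds of 4.32 and 3.91. Np and Sb encode membrane proteases of the epidermis, and their highest shared peaks had folds of 3.32 and 2.39, and 2.53 and 2.56.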

How the data were processed

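H3K27ac CUT&RUN libraries of 2 replicates were analysed from 1 peak list each. Bowtie2, MACS2 and the build dm6 are named per the submitters' processing notes. The versions, caller settings, handling of duplicates and any control were not given in the sources used here. Without a header line, columns were read by the narrowPeak layout. The deposited fold is a ratio of summit pileup to background. Each peak's deposited -log10 p and q come from the caller. As deposited, the score equals the -log10 q times 10, as an integer. The deposited start, end and summit were made 1-based. The smallest -log10 q was 2.01 and 2.04, so weaker regions are not listed.

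The pileup and background were solved from the fold and -log10 p with a pseudocount of 1 and a Poisson model (Python 3.11.15, scipy 1.17.1). All but 1 peak of each list, neither at a ZP gene, were solved within 0.001 units of log10 p, and the solver was tested on simulated data. The most frequent background was taken as genome-wide. Intervals cover counting error only, and the labels describe no molecular identifiers. Total read numbers are not used here.

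Gene spans came from a RefSeq table of Release 6 (dm6) that gives no strand or exons, so ends are named lower- and higher-coordinate. The text names all 10 members, the listed comparison genes and genes holding a member's peak. The members, lists and alternatives were chosen with earlier results of these data known. No test was run, since there is 1 group. Alternatives were other extensions, windows, thresholds, overlaps and list lengths, and leaving out each replicate.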

Additional observations from a re-analysis of the deposited data

How the results depend on the processing

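With the 7230 peaks of lowest p kept in either list, 6 of the 10 genes had a shared peak, 16 shared peaks remained of 49, and 3 genes had a gene-end peak in both lists in place of 5. With a -log10 q of at least 5, 10 genes kept a shared peak, 3 had a gene-end peak in both lists, and the median density was 1.01 per 10 kb in place of 1.78. The number of shared peaks was 31 without the extension of the span and 32 with a reciprocal overlap of 50%. With 1 replicate left out, any peak of the other list counts: this gave 68 to 119 peaks, 6 to 7 genes with a gene-end peak, 10 genes with a peak in each case, and a median highest fold of 2.62 to 3.21 against 2.73. Apart from the span without extension, the shares and medians over all genes were not taken again at these settings. Ranking by pileup, added after seeing the data, gave 2 genes with a pair above percentile 95 in both lists in place of 1. The cause of these shifts was not tested. For single genes, 34 of 39 values of the highest fold without the extension, without peaks inside another gene or in 1 replicate alone moved by no more than the spread between the replicates. The 5 others were neo and zye without the extension (2.26 and 2.58) and tyn, neo and zye in replicate 1 alone (4.52, 2.85 and 3.23). Where the same peak stayed highest, the value was unchanged or, in 1 replicate alone, lay within the spread by construction. The count of 34 therefore does not measure stability. Without the extension pio had no value, with 10 kb it had 3.13 in place of 2.11, and with a reciprocal overlap of 50% m had no shared peak. The setting limited to the 5' end of genes could not be run without strand in the gene table. No paired analysis was possible because there is 1 group. Weak regions are not listed: no fold under 1.49 is listed in replicate 1 and none under 1.31 in replicate 2.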

Other observations

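The peaks of m and tyn that were high in replicate 1 and absent from the list of replicate 2 were not the only such peaks on the X. Of the X peaks of replicate 1 above percentile 95 by fold, 8 of 31 (25.8%) had no partner in replicate 2. The m peak of 3.73 and the tyn peak of 4.52 are among these 8. On 2L, 2R, 3L and 3R this held for 10 of 652 (1.53%). In the other direction, 2 of 32 X peaks of replicate 2 above percentile 95 (6.25%) and 122 of 1231 autosomal ones (9.91%) had no partner in replicate 1. The lowest pileup listed on the X was 28 fragments in replicate 1 and 46 in replicate 2. These values are a description of the 2 lists, and the cause was not tested.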
